A study of Mus musculus with 34 samples.

Results

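The 8 genes described here serve antigen presentation by MHC class II and mark the cells that carry it out in skin. They were taken by symbol from 47633 genes listed in each of 2 tables of mean FPKM (fragments per kilobase of transcript, scaled to the mapped fragments of a library), 1 table per tissue. H2-Aa, H2-Ab1 and H2-Eb1 encode chains of the class II molecule, Cd74 encodes the invariant chain, and Ciita encodes the transcriptional coactivator of these genes. Cd207 encodes langerin, the lectin of Langerhans cells, Mgl2 encodes a lectin of dermal dendritic cells and macrophages, and Itgax encodes the integrin chain CD11c. The genes were chosen by their mean FPKM in these same columns, so their levels and ratios are a description, with no test attached.

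The study sequenced RNA from skin of mice aged 8 to 10 weeks, with and without ionizing radiation, in 34 samples that form 17 groups of 2. For back skin in the hair growth phase, 18 samples represent wild-type, Krt17 knockout and p53 knockout mice. Each genotype had an unirradiated group (0 h) and 2 groups taken 6 h or 24 h after a dose of 5 Gy. For footpad, 16 samples represent wild type and the Krt17 knockout, unirradiated (T0) or taken at T3, T6 or T9 following 40 Gy, and the labels give these points no unit. Neither the strain, nor the knockout alleles, nor whether both samples of a group came from separate animals is stated. All groups of a tissue share the skin site and all irradiated groups of a tissue the dose, and the p53 knockout was studied in back skin alone.

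A class II molecule is a pair of an alpha and a beta chain that holds a peptide from engulfed protein on the cell surface for CD4+ T cells. The invariant chain blocks the groove and guides the pair to the endosome, where cathepsin S trims that chain and the DM proteins swap its remnant for a peptide. CIITA does not bind DNA itself but joins RFX, CREB and NF-Y, which sit on the X and Y boxes of class II promoters. In skin, Langerhans cells of the epidermis and dendritic cells of the dermis carry class II constitutively, as do B cells, and macrophages carry it to a varying degree.

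Each value below is the authors' mean FPKM of a group of 2. Values of single samples and read numbers are not used here, so differences come without a replicate check, a standard deviation or a p-value. Ratios are log2 ratios of mean FPKM + 1, which understate the change of weakly expressed genes. The call was a 2-fold difference on that scale. A 1.5-fold call was added after seeing that several class II genes stood close to the 2-fold line. In bulk tissue, fewer cells of a type and less RNA per cell cannot be told apart.

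Krt17 stood between 14.7 and 29.9 FPKM in the 3 back skin groups labelled Krt17 knockout, below the 883 FPKM of the lowest other back skin group, and between 18.2 and 68.1 in the knockout footpad against 92.6 to 835 in wild type. Trp53 stood between 18.05 and 28.8 FPKM in the p53 knockout groups and between 19.3 and 43.8 in the other back skin groups, and a deletion within the gene could not be checked from it. Column totals lay between 854202 and 1095024 FPKM. Keratin and keratin-associated genes together took 10.5% to 28.5% of the total in back skin and 4.12% to 5.95% in the footpad, apart from wild type at T3 with 1.98%, where the abundant Krt10 was listed at 0.

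H2-Ab1 (chr17:34257689-34269419, plus strand), H2-Aa (chr17:34282744-34287823, minus strand) and H2-Eb1 (chr17:34305867-34316674, plus strand) lie side by side within 58986 bases of the mouse MHC (GRCm38, the assembly also named mm10). Reads shared between H2-Eb1 and its relative H2-Eb2 may be split in a way the tables do not show, although H2-Eb2 was at most 0.107 FPKM in any group. H2-Ea-ps, annotated in the reference genome as a polymorphic pseudogene of the alpha chain that pairs with H2-Eb1, was listed at 0 in all 17 groups.

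Promoters are shown for the class II genes because these genes varied together and share known promoter elements. RefSeq promoter windows (GRCm38.p6, 250 bases before to 50 after the start of a gene) were at hand for H2-Aa, H2-Eb1, Cd207, Mgl2 and Itgax, 5 of the 8 members, and for 6 of 6 class II relatives searched. The motifs were ATTGG, the inverted CCAAT of the Y box, and ACAGATG, a part of the X box, on both strands. A pair of GNAAC, the start of the X box, followed 20 to 35 bases later by ATTGG was added after the sequences were seen. GNAAC and ACAGATG can overlap by the bases AC. The 250 bases before the start of H2-Aa (chr17:34287824-34288073, minus strand) and of H2-Eb1 (chr17:34305617-34305866, plus strand) follow 5′ to 3′ in the direction of the gene, with both parts of the pair in capitals.
H2-Aa: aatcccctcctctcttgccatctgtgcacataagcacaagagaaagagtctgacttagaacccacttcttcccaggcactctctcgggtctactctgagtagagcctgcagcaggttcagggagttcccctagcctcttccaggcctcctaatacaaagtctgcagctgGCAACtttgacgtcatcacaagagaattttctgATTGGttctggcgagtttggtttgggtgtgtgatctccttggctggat
H2-Eb1: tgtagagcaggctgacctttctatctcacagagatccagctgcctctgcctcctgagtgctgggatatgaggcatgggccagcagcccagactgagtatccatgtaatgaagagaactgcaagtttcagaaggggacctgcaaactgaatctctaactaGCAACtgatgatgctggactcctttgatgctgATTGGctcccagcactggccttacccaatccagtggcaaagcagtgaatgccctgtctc

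The stretch around the pair is shown for 4 relatives whose promoters also hold it, again with the pair in capitals. H2-DMb1 (chr17:34153094-34153137, plus strand) encodes a chain of the peptide-loading DM protein. H2-Oa (chr17:34092300-34092343, plus strand) and H2-Ob (chr17:34238815-34238855, plus strand) encode the DO protein that restrains DM, and H2-Eb2 (chr17:34325540-34325582, plus strand) is a second E beta gene.
H2-DMb1: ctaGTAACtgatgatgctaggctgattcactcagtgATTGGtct
H2-Oa: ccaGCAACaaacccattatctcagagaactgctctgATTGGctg
H2-Ob: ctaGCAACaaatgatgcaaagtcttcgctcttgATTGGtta
H2-Eb2: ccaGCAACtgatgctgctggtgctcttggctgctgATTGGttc

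The gap between both parts was 28 bases in H2-Aa, H2-DMb1 and H2-Oa, 27 in H2-Eb1 and H2-Eb2, and 25 in H2-Ob. The pair was present on the gene strand in 1.33% of all 32851 promoter windows of this length, and on either strand in 2.67%. ATTGG alone was present in 37.4% and ACAGATG in 5.01%. The windows of Cd207, Mgl2, Itgax, H2-DMb2 and H2-DMa (2 windows) held no pair, although those of Mgl2, Itgax and H2-DMb2 and 1 of H2-DMa held ATTGG. Outside the pair, the windows of H2-Aa and H2-Oa also contained ACAGATG. These matches describe letters, not binding.

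The other members lie elsewhere in the same assembly, Cd74 at chr18:60803848-60812652, Ciita at chr16:10480059-10528418, Cd207 at chr6:83671215-83677857, Mgl2 at chr11:70130329-70137550 and Itgax at chr7:128129547-128150657. GENCODE annotates all 8 as protein coding. Clec10a, the close relative of Mgl2, lies 18646 bases away from it, and the division of shared reads between them is uncertain.

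In back skin the 4 class II genes H2-Aa, H2-Ab1, H2-Eb1 and Cd74 were among the well-expressed genes of the tissue and shared 1 time course in wild type. They stood near their control level at 6 h after 5 Gy and at 0.50 to 0.53 of it at 24 h. The p53 knockout followed the same course, with 0.53 to 0.66 of the control at 24 h. In the Krt17 knockout, the 3 H2 genes were lower already at 6 h, at 0.74 to 0.76 of control, whereas Cd74 was not, and all 4 were at 0.48 to 0.52 of control at 24 h. The lowest of 9 back skin values of each of the 4 genes was that of the Krt17 knockout at 24 h.

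H2-Aa, the A alpha chain, stood at 167, 168 and 84.0 FPKM (0, 6 and 24 h, in that order) in wild type, at 133, 100.3 and 63.5 in the Krt17 knockout, and at 153, 173 and 81.4 in the p53 knockout. H2-Ab1, the A beta chain that pairs with it, stood at 145, 157 and 77.3 FPKM in wild type, at 125, 94.97 and 64.5 in the Krt17 knockout, and at 138, 140.1 and 75.8 in the p53 knockout. For both chains the 3 values at 24 h lay below all 6 values at 0 h and 6 h, across genotypes. The share of all genes with such an order is not given here, so the order is a description only.

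H2-Eb1, the E beta chain, stood at 127, 131 and 64.4 FPKM in wild type, at 109, 80.9 and 54.8 in the Krt17 knockout, and at 101, 116 and 66.6 in the p53 knockout. Cd74 stood at 177, 169.9 and 90.9 FPKM in wild type, at 127, 134 and 61.3 in the Krt17 knockout, and at 150.4, 166 and 90.1 in the p53 knockout. The 24 h values were again the lowest 3 of 9 for either gene. Set against the 0 h group of the Krt17 knockout, Cd74 parted from the H2 chains at 6 h and not at 24 h. Its ratio to H2-Ab1 was nevertheless below that of wild type at 0 h (1.02 against 1.22) and at 24 h (0.951 against 1.18).

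**Figure D1:**
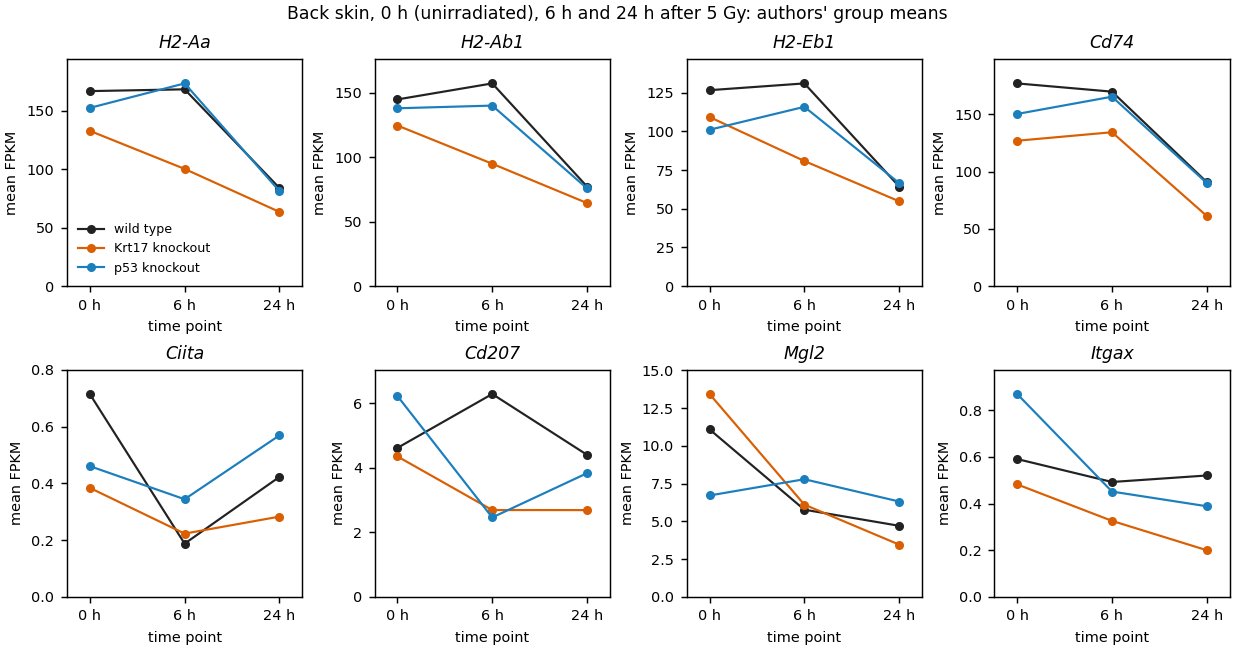
Mean FPKM of the 8 genes in back skin (vertical axes from 0, scaled per gene) at 0 h, 6 h and 24 h after 5 Gy, drawn at even spacing, with 1 point per group of 2 samples and 1 line per genotype. The 4 class II genes in the upper row are lowest at 24 h in every genotype, while the genes in the lower row differ in course between genotypes.

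On the log2 scale at 24 h, the 4 genes lay between -0.98 and -0.90 in wild type, between -1.05 and -0.94 in the Krt17 knockout, and between -0.90 and -0.59 in the p53 knockout. H2-Aa (-1.05) and Cd74 (-1.04) in the Krt17 knockout were just past the 2-fold line, and H2-Eb1 there (-0.98) and H2-Aa in wild type (-0.98) just short of it. At 2-fold, 1 of the 8 members was lower in wild type at 24 h, 3 in the Krt17 knockout and 0 in the p53 knockout, where 5.55%, 2.77% and 1.97% of all genes compared passed that fold either way. At 1.5-fold, 5, 5 and 4 members were lower, against 15.9%, 6.1% and 3.01% of all genes. Since these ratios were known when the genes were chosen, nothing is read from the shares.

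At 6 h the median log2 ratio of the 4 genes was 0.03 in wild type, -0.40 in the Krt17 knockout and 0.16 in the p53 knockout. From 6 h to 24 h it was -1.005, -0.60 and -0.87. Both times are set against the same 0 h column of a genotype, so the 6 h and 24 h ratios are not separate observations. At 2-fold, 0, 1 and 1 members were lower at 6 h (Mgl2 in the Krt17 knockout and Cd207 in the p53 knockout), where 4.96%, 2.71% and 3.14% of all genes passed that fold either way.

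The median over all genes compared at 24 h was -0.20 in wild type, -0.09 in the Krt17 knockout and 0.04 in the p53 knockout. After columns were rescaled by their median ratio, the median of the 4 class II genes was -0.69, -0.91 and -0.84, below 0 in each genotype. With that rescaling 0, 1 and 0 members were past 2-fold at 24 h, and with rescaling to a common total without keratin and keratin-associated genes 5, 5 and 0 were. The keratin share went from 16.6% to 28.5% of the FPKM total between 0 h and 24 h in wild type and from 17.4% to 25.5% in the Krt17 knockout, but from 15.4% to 13.6% in the p53 knockout.

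**Figure D2:**
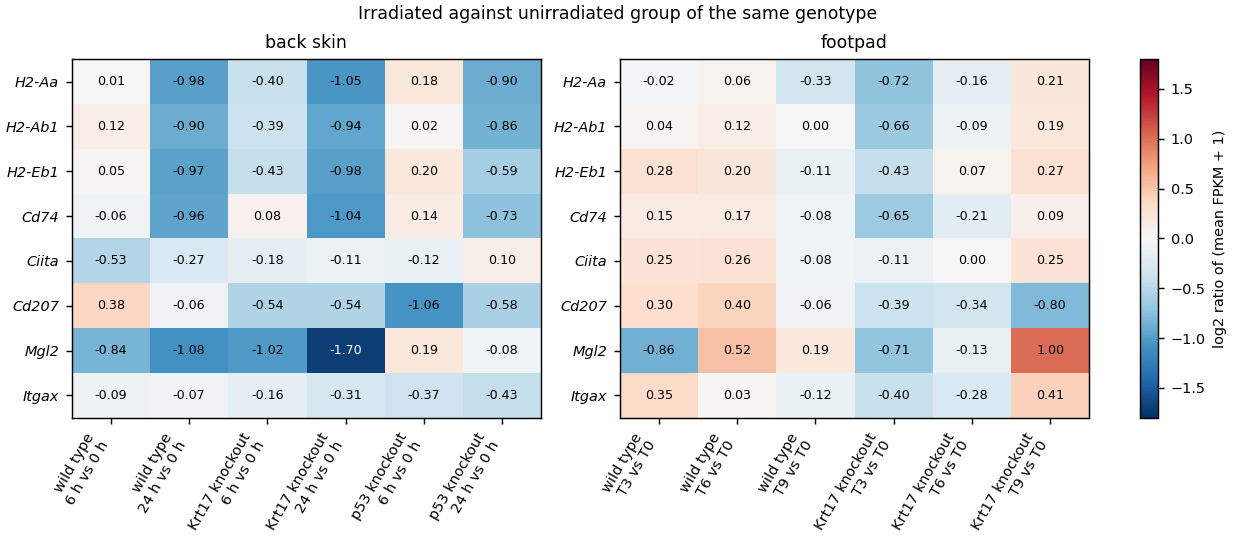
Log2 ratio of mean FPKM + 1 of each member (rows) between an irradiated group and the unirradiated group of the same genotype (columns), for back skin and footpad, with blue for lower and red for higher values. The 4 class II rows are between -1.05 and -0.59 at 24 h in back skin and between -0.33 and 0.28 in wild-type footpad.

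Lists of other leukocyte markers had other medians than the class II genes, although single members followed various courses. The median log2 ratio of 7 leukocyte markers, such as Tyrobp and Cd52, was -0.50, -0.39 and 0.17 at 6 h in wild type, Krt17 knockout and p53 knockout. At 24 h it was 0.10, -0.07 and -0.18. Thus the class II genes stood near their control value in wild type where these markers were lower, and were lower where these markers stood near theirs. The 12 macrophage markers had medians of 0.06, -0.12 and 0.29 at 24 h. Fcgr1, an Fc receptor of macrophages, stood at 2.30, 0.408 and 2.35 FPKM in wild type, and Mrc1, the mannose receptor, at 7.98, 5.66 and 7.83. Mertk, a receptor for dying cells that was picked after its values were seen, stood at 5.72, 6.13 and 3.03 FPKM there and so had the class II course in wild type. It stood at 4.74, 5.82 and 3.74 FPKM in the Krt17 knockout. In the p53 knockout it stood at 4.89, 8.29 and 5.07, not below its control at 24 h as the class II genes were. In wild type Csf1r, the receptor for colony-stimulating factor, stood at 10.6, 5.85 and 5.20, and Cd163, a scavenger receptor, at 3.52, 3.01 and 6.33. The macrophage markers thus did not share 1 course. Relative to the leukocyte markers of the same column, the class II median at 24 h was -1.06, -0.94 and -0.62.

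B cells also carry class II, and their summed markers were lower after irradiation, at 11.6, 2.43 and 2.98 FPKM in wild type, then 8.73, 4.005 and 6.85 in the Krt17 knockout, and 8.22, 3.61 and 5.63 in the p53 knockout. Only Ighm, the heavy chain of IgM, of 6 B cell markers reached 1 FPKM, at 10.9 FPKM in wild-type controls, while Ms4a1 (CD20) was at most 0.0462 FPKM. The sum thus mostly follows Ighm. Cd79a, another listed marker, was higher at 24 h than at 0 h in wild type (0.833 against 0.176 FPKM) and Krt17 knockout (0.851 against 0.189). In the p53 knockout it was not (0.261 against 0.286), and all these levels are low. Fibroblast markers had medians of -1.56, -1.04 and 0.16 at 24 h. Their members differed in wild type, where Col1a1 stood at 453 FPKM at 0 h and 86.6 at 24 h. Dcn stood at 289 and 236 at these times, and Pdgfra at 6.28 and 8.33. The part of these cell types in the class II values was not tested. Class I presentation genes (15 measured) had medians of 0.05, -0.02 and -0.29 at 24 h with 0 of 15 at least 2-fold lower in any genotype, and B2m, the shared light chain of class I molecules, stood at 656, 678 and 699.9 FPKM in wild type.

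**Figure D3:**
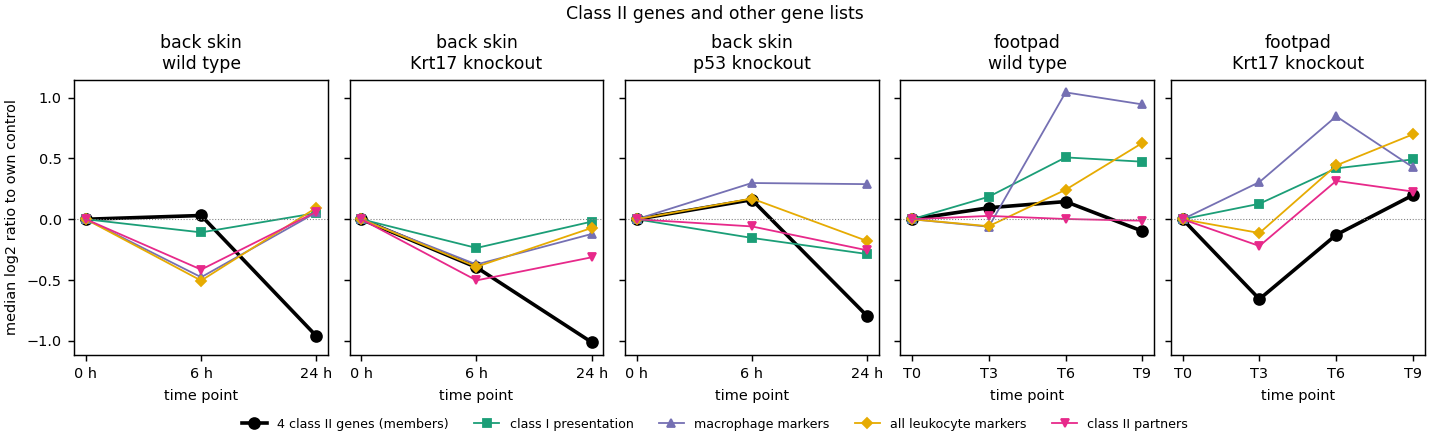
Median log2 ratio to the unirradiated group of the same genotype for the 4 class II genes (black) and 4 other gene lists, with points drawn at even spacing and 0 marking the control. In back skin the class II median ends at -0.96, -1.01 and -0.79 while the other lists end between -0.31 and 0.29, and in the footpad the macrophage list reaches 1.04 in wild type while the class II median stays between -0.10 and 0.15.

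Genes that act with class II in the endosome did not all share its course. Of 13 such genes 11 were measured and 7 reached 1 FPKM, and their median log2 ratio at 24 h was 0.06, -0.31 and -0.26. H2-DMa, a chain of the peptide-loading DM protein, stood at 11.9, 8.28 and 5.49 FPKM in wild type, at 8.62, 5.17 and 5.51 in the Krt17 knockout, and at 10.0, 5.48 and 6.26 in the p53 knockout. H2-DMb1, its partner chain, stood at 11.4, 6.93 and 7.17, at 10.7, 5.86 and 8.39, and at 12.4, 7.39 and 9.68 FPKM. Both DM chains were thus lower at 6 h than at 0 h in all 3 genotypes, at a time when the class II chains of wild type and p53 knockout were not.

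Set against the summed FPKM of the 4 class II genes, H2-DMa and H2-DMb1 together amounted to 3.78%, 2.43% and 4.0% in wild type, then 3.91%, 2.68% and 5.70% in the Krt17 knockout, and 4.14%, 2.16% and 5.08% in the p53 knockout. The 6 h value was the lowest of each genotype. H2-DMb2, a second DM beta gene, stood at 2.05, 1.29 and 1.06 FPKM in wild type. Ctss, cathepsin S, stood at 29.1, 17.1 and 33.9 FPKM in wild type, and Lgmn, another endosomal protease, at 35.02, 27.9 and 57.7. Both proteases were therefore above their control value at 24 h in wild type, where the chains were below theirs. In the knockouts this held for Lgmn, at 48.95 against 35.1 FPKM (Krt17) and 47.0 against 35.4 (p53). Ctss was below its control at 24 h there, at 21.3 against 26.95 FPKM (Krt17) and 31.6 against 37.9 (p53).

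Ciita was low throughout, at 0.715, 0.187 and 0.423 FPKM in wild-type back skin, then 0.384, 0.223 and 0.283 in the Krt17 knockout, and 0.461, 0.344 and 0.569 in the p53 knockout. The lowest listed value of each genotype was that at 6 h, but at these levels the order is uncertain, most of all in the Krt17 knockout. On the log2 scale with 1 FPKM added, the wild-type ratio at 6 h was -0.53, and with 0.1 FPKM added it was -1.505. Ciita did not reach the filter of 1 FPKM in any group of either tissue, and Itgax did not in back skin, so 6 of 8 members passed in back skin and 7 of 8 in the footpad.

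Factors that join CIITA on class II promoters, or induce Ciita, were measured at higher levels. Of 12 such genes, 3 were at least 2-fold lower in wild-type back skin at 6 h and 1 at 24 h, while 0 were in either knockout at either time. Of all genes compared, 475 and 511 were 2-fold lower in wild type at these times, and 154 to 170 in the knockouts, so nothing about genotype is read from the counts. Nfya, a subunit of NF-Y, stood at 12.2, 4.49 and 8.76 FPKM in wild type, and Creb1 at 10.3, 6.45 and 4.08. Nfya had its lowest wild-type value at 6 h.

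All 3 genes that mark Langerhans and dendritic cells were listed lower at 24 h than at 0 h in every genotype of back skin. The size of the difference varied between genes and genotypes, and so did the course at 6 h. Cd207 stood at 4.61, 6.28 and 4.40 FPKM in wild type, then 4.35, 2.69 and 2.68 in the Krt17 knockout, and 6.22, 2.46 and 3.83 in the p53 knockout. At 24 h in wild type, Cd207 was at 0.95 of its control level (log2 ratio -0.06) while the class II genes were at 0.50 to 0.53 of theirs. In the p53 knockout its lowest value was at 6 h, with a log2 ratio of -1.06, when the class II genes stood at or above control.

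Mgl2 stood at 11.1, 5.77 and 4.70 FPKM in wild-type back skin, then 13.4, 6.11 and 3.45 in the Krt17 knockout, and 6.71, 7.79 and 6.31 in the p53 knockout. Its log2 ratios at 24 h were -1.08, -1.70 and -0.08, so Mgl2 was more than 2-fold lower in wild type and Krt17 knockout and near its control in the p53 knockout, whose control value was the lowest of the 3. Clec10a, the related lectin next to it, stood at 20.7, 12.6 and 19.2 FPKM in wild type, then 18.9, 24.7 and 15.3 in the Krt17 knockout, and 14.1, 28.0 and 18.9 in the p53 knockout. The ratio of Clec10a to Mgl2 ranged from 1.40 to 4.44 over back skin, so the relatives did not vary in step.

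Itgax stood at 0.591, 0.492 and 0.520 FPKM in wild-type back skin, then 0.482, 0.326 and 0.200 in the Krt17 knockout, and 0.870, 0.451 and 0.388 in the p53 knockout. These levels are too low to rank with confidence, and with 0.1 FPKM added in place of 1 the Krt17 knockout ratio at 24 h moved from -0.31 to -0.96. Other markers of conventional dendritic cells were also sparse, with Xcr1 at most 0.195 FPKM and Flt3 at most 0.282 in back skin, and 9 of 13 reached 1 FPKM. Their median log2 ratio was -0.67, -0.31 and 0.20 at 6 h and -0.01, 0.01 and 0.08 at 24 h. Cd209a, a lectin of dermal dendritic cells, stood at 4.31, 1.17 and 6.04 FPKM in wild type, and was thus lowest when the class II genes were not.

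Of the genes for Langerhans cell identity, Epcam stood between 84.3 and 108 FPKM in back skin, and hair follicle keratinocytes make it too. The label of dendritic and Langerhans genes rests in back skin on Cd207 at 2.46 to 6.28 FPKM, Mgl2 at 3.45 to 13.4 and Itgax at most 0.870. The class II genes stood at 54.8 to 177 FPKM there. Cd207 in the footpad stood at 6.54 to 14.2 FPKM. No value here assigns the class II RNA to 1 cell type.

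Knockout and wild type were also compared at the same time point in back skin. In the Krt17 knockout the 4 class II genes were below wild type at all 3 times, with median log2 ratios of -0.27 at 0 h, -0.71 at 6 h and -0.33 at 24 h. Summed skeletal muscle markers were higher in the Krt17 knockout at the same times, at 4233, 5269 and 5320 FPKM against 2178, 4686 and 3357, and their part in the class II values was not tested. At 6 h H2-Aa, H2-Ab1 and H2-Eb1 were at -0.74, -0.72 and -0.69 and Cd207 at -0.98, and 4 members were at least 1.5-fold lower against 3.41% of all genes. None of the 8 reached 2-fold at any of these times, where 1.6%, 2.12% and 2.15% of all genes did so either way. In the p53 knockout the class II medians were -0.18, -0.10 and -0.02, and at 24 h all 4 genes lay between -0.04 and 0.05 of wild type. These values depend on the scaling, since after rescaling by the median ratio they were -0.16, -0.33 and -0.31, and relative to leukocyte markers -0.53, -0.77 and -0.006. At 2-fold, 0, 1 and 0 members were lower than wild type at 0, 6 and 24 h, the 1 being Cd207 at -1.08, where 1.76%, 5.17% and 6.08% of all genes passed either way.

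The difference between a knockout response and the wild-type response, an interaction that carries more noise than a single ratio, was small for the class II genes at 24 h. Its median was -0.06 for the Krt17 knockout and 0.15 for the p53 knockout, where the median of all genes was 0.10 and 0.25. After columns were rescaled by their median ratio these class II medians were -0.22 and -0.16, so the sign for the p53 knockout depends on the scaling. At 6 h the medians were -0.45 and 0.16, and after that rescaling -0.61 and -0.087, again with a turned sign for the p53 knockout. For the p53 knockout, Mgl2 differed by 1.03 at 6 h and 1.01 at 24 h and Cd207 by -1.44 at 6 h, against 5.59% and 7.56% of all genes past 2-fold either way at these times. Both Mgl2 values were just past the 2-fold line, and whether they pass it depends on the scaling of the columns.

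In wild-type footpad the 4 class II genes varied little after 40 Gy. Their median log2 ratios to T0 were 0.09 at T3, 0.15 at T6 and -0.10 at T9. In the Krt17 knockout footpad they were lowest at T3, with a median of -0.66, then -0.13 at T6 and 0.20 at T9. The lowest of 8 footpad values of each of these genes was that of the Krt17 knockout at T3, and the highest was that of the Krt17 knockout at T9 for H2-Aa, H2-Ab1 and Cd74 and of wild type at T3 for H2-Eb1.

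H2-Aa stood at 95.9, 94.7, 100.05 and 76.2 FPKM in wild type (T0, T3, T6, T9) and at 88.0, 52.9, 78.5 and 102 in the Krt17 knockout. H2-Ab1 stood at 107, 110.3, 117 and 107 FPKM in wild type, compared with 113, 70.9, 106 and 129 in the Krt17 knockout. H2-Eb1 stood at 68.2, 82.9, 78.4 and 62.9 FPKM in wild type, compared with 65.2, 48.1, 68.3 and 78.9 in the Krt17 knockout. For each of the 3 chains the T3 value of the knockout lay below all 4 wild-type values, and these T3 values come from the same column. How many of all genes have such an order is not given here, so it is a description only. Cd74 stood at 102, 113, 114 and 96.0 FPKM in wild type, compared with 108, 68.3, 93.0 and 115 in the Krt17 knockout, again lowest at T3 in the knockout.

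**Figure D4:**
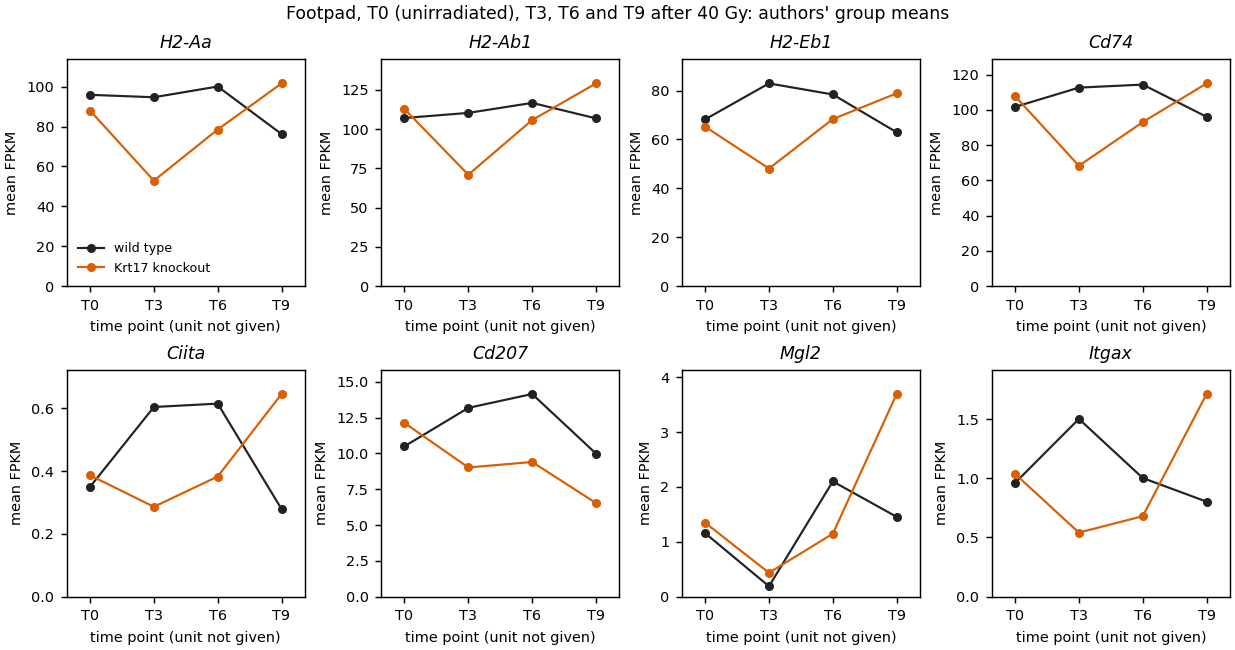
Mean FPKM of the 8 genes in footpad (vertical axes from 0, scaled per gene) at T0, T3, T6 and T9 after 40 Gy, 1 point per group of 2 samples and 1 line per genotype. The class II genes of the Krt17 knockout are lowest at T3 (48.1 to 70.9 FPKM), and its Cd207 is lowest at T9 (6.54 FPKM).

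Against wild type at the same point, the median log2 ratio of the 4 genes in the Krt17 knockout was 0.01 at T0, -0.74 at T3, -0.24 at T6 and 0.30 at T9. At T3 the ratios were -0.83 for H2-Aa, -0.63 for H2-Ab1, -0.77 for H2-Eb1 and -0.71 for Cd74, so the knockout stood at 0.56 to 0.64 of wild type. At 1.5-fold, 5 of 8 members were lower there, against 1.97% of all genes, and at 2-fold 0 of 8 were, against 2.37% either way. Against its own T0 group, 4 of 8 members were 1.5-fold lower at T3 in the knockout, against 3.4% of all genes, and 0 were 2-fold lower, where 3.12% passed either way. In wild type 1 of 8 was 1.5-fold lower at T3, which was Mgl2, against 4.73%.

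Markers of other cells in these T3 groups were also unequal. The summed leukocyte markers at T3 were 71.6 FPKM in the Krt17 knockout, against 81.1 in wild type. In the same order, the sums were 152 and 104 for macrophages, 2.63 and 2.59 for B cells, and 529 and 138 for skeletal muscle. S100a8 and S100a9, which neutrophils and injured keratinocytes both make, stood at 152 and 123 FPKM in the Krt17 knockout. Their wild-type values were 150.1 and 68.3 FPKM. Cxcr2, another listed neutrophil marker, stood at 2.87 FPKM in the knockout, against 2.51 for wild type. The remaining markers of that list, Ly6g, Mpo, Mmp8 and Csf3r, were at most 0.204 FPKM. Relative to the leukocyte markers of the same column, the Krt17 knockout class II median at T3 against T0 was -0.54. The part of these markers in the class II values was not tested.

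In the footpad the macrophage list was higher at later points, with medians of 1.04 at T6 and 0.94 at T9 in wild type and 6 and 4 of 11 genes at least 2-fold higher. Of all 13733 genes compared, 339 and 432 were 2-fold higher at these points. C1qa, a complement gene of macrophages, stood at 17.7, 17.3, 51.3 and 45.3 FPKM in wild type. Class I presentation had medians of 0.51 and 0.47 at T6 and T9 in wild type, with B2m at 141, 254, 383 and 325 FPKM. The class II genes thus stood near their T0 level at points where macrophage and class I genes were above theirs. Relative to the leukocyte markers, the class II median at T9 was -0.50 for the Krt17 knockout and -0.73 for wild type, so the sign for the knockout at T9 turns with that choice.

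Ciita in the footpad stood at 0.350, 0.604, 0.615 and 0.279 FPKM in wild type and 0.387, 0.287, 0.383 and 0.646 in the Krt17 knockout. Its lowest listed values were at T3 in the knockout and at T9 in wild type, an order that is uncertain at these levels. The 7 endosomal partner genes that reached 1 FPKM had medians of 0.03, 0.00 and -0.01 in wild type and -0.22, 0.32 and 0.23 in the Krt17 knockout, with 0 of 7 past 2-fold at any point. H2-DMb1 stood at 6.38, 6.67, 6.37 and 6.32 FPKM in wild type and 6.85, 4.62, 7.14 and 8.15 in the Krt17 knockout, where it too was lowest at T3. H2-DMb2 stood at 1.88, 3.75, 3.07 and 1.31 FPKM in wild type and 1.88, 1.44, 2.12 and 1.40 in the knockout.

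Cd207 in the footpad stood at 10.5, 13.2, 14.2 and 9.99 FPKM in wild type, compared with 12.1, 9.03, 9.41 and 6.54 in the Krt17 knockout. It was below wild type at T3, T6 and T9 in the knockout, with log2 ratios of -0.50, -0.54 and -0.54, and above it at T0 (0.19). At T9 Cd207 in the Krt17 knockout had its lowest footpad value (-0.80 against T0) while 3 of the 4 class II genes had their highest. Cd1d1, which presents lipids and is also made by Langerhans cells, stood at 2.52, 1.95, 4.37 and 2.81 FPKM in that genotype, and Epcam at 24.7, 26.4, 20.3 and 24.3. Neither had its lowest value at T9.

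Mgl2 in the footpad stood at 1.16, 0.191, 2.101 and 1.46 FPKM in wild type, compared with 1.35, 0.436, 1.15 and 3.69 in the Krt17 knockout. It was lowest at T3 in both genotypes, and its highest value was that of the knockout at T9, with a log2 ratio of 0.999 to T0. With 0.1 FPKM added in place of 1, the T3 ratios moved from -0.86 to -2.11 in wild type and from -0.71 to -1.43 in the knockout. Clec10a stood at 1.44, 1.66, 3.96 and 3.24 FPKM in wild type and 2.90, 3.15, 3.18 and 2.61 in the knockout, with no low point at T3. Itgax stood at 0.961, 1.501, 1.002 and 0.802 FPKM in wild type, compared with 1.04, 0.541, 0.680 and 1.71 in the knockout, where it was lowest at T3 and highest at T9 as all 4 class II genes were in that genotype.

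Genes of dendritic cell maturation and migration were higher in the footpad at later points, with medians of 0.75 and 0.76 at T6 and T9 in wild type and 0.62 and 0.49 in the Krt17 knockout. Ccl17, a chemokine made by mature dendritic cells, stood at 0.606, 1.39, 2.31 and 3.75 FPKM in wild type and 1.72, 1.69, 2.46 and 6.74 in the knockout. Fscn1, fascin, an actin-bundling protein of mature dendritic cells and of stressed epithelium, stood at 2.01, 1.81, 4.76 and 9.08 FPKM in wild type and 2.43, 1.65, 16.9 and 7.74 in the knockout. The class II genes of wild type stood within -0.33 and 0.20 of T0 on the log2 scale at T6 and T9. In back skin the same list had medians of -0.30, -0.25 and -0.25 at 24 h.

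Unirradiated wild-type skin of the 2 sites stands in separate tables, so levels are set side by side only. H2-Aa, H2-Ab1, H2-Eb1 and Cd74 stood at 167, 145, 127 and 177 FPKM in back skin and at 95.9, 107, 68.2 and 102 in the footpad. Cd207 stood at 4.61 FPKM in back skin and 10.5 in the footpad, and Mgl2 at 11.1 and 1.16. Langerin was therefore listed higher, and Mgl2 lower, in the footpad, opposite to each other.

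A ratio between genes of the same column does not depend on how that column was scaled. Relative to the mean of the 4 class II genes, each of the 4 varied 1.14-fold to 1.30-fold over the 9 back skin groups and 1.07-fold to 1.19-fold over the 8 footpad groups. Their mean itself varied 2.57-fold and 1.77-fold. Cd74 had the widest range in back skin, from 1.004 to 1.31 times the mean, with its top in the Krt17 knockout at 6 h. That mean contains each gene, and ratios between pairs varied more, with Cd74 over H2-Ab1 from 0.951 to 1.42 in back skin, a 1.49-fold range.

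Cd207 amounted to 1.65% to 5.56% of the class II mean in back skin and to 6.16% to 15.0% in the footpad, ranges that do not overlap. In back skin its highest share was that of wild type at 24 h and its lowest that of the p53 knockout at 6 h. In the footpad its lowest share was that of the Krt17 knockout at T9. Mgl2 amounted to 3.68% to 10.9% of the class II mean in back skin and to 0.190% to 3.48% in the footpad, again with no overlap. The share of all genes whose ratio separates the tissues in this way is not given here. The lack of overlap is therefore a description only, and the gaps are narrow.

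**Figure D5:**
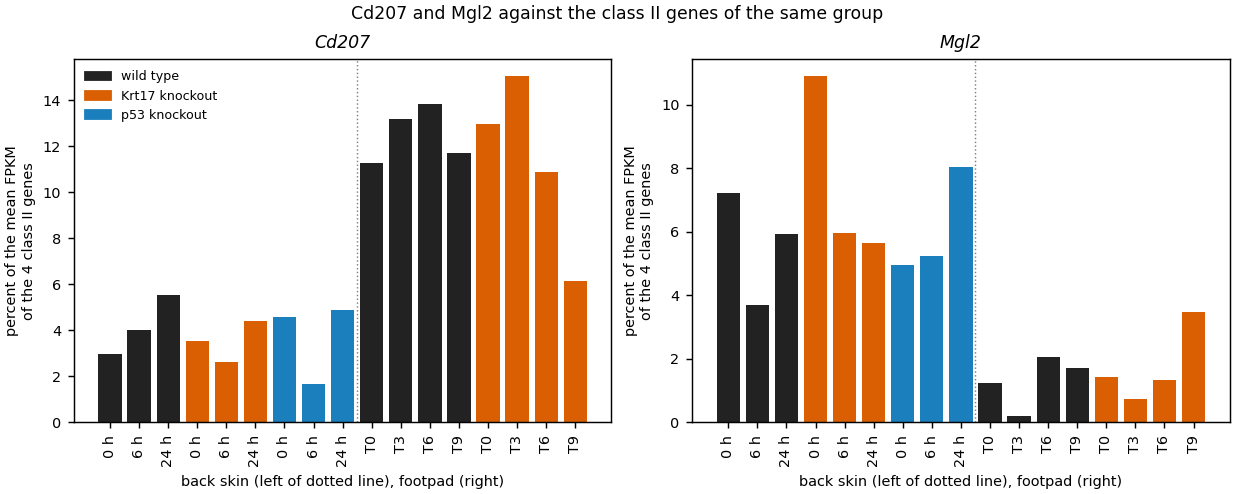
Cd207 and Mgl2 as a percent of the mean FPKM of the 4 class II genes of the same group, with 1 bar per group of 2 samples, back skin left and footpad right of the dotted line, coloured by genotype. Cd207 is at most 5.56% in back skin and at least 6.16% in the footpad, and Mgl2 is at least 3.68% in back skin and at most 3.48% in the footpad. The share of all genes that separate the tissues in this way is not given.

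The genes whose pattern was most like that of the 4 class II genes were sought among 747 genes with at least 5 FPKM in a column and a range of at least 1 log2 unit in each tissue. Pearson's r of log2 values was taken over 9 back skin and over 8 footpad columns and ranked by the lower of both. The columns share controls, scaling and the time course, so these values are a description. Chaf1b, a subunit of the chromatin assembly factor, led with r of 0.74 and 0.82, then Lig1, DNA ligase I, with 0.70 and 0.73, and Selplg, a selectin ligand of leukocytes, with 0.65 and 0.83. Cdt1 (0.64 and 0.77), Hmgb3 (0.77 and 0.62), Ciart (0.61 and 0.68), Usp1 (0.62 and 0.58) and Rfc3 (0.62 and 0.58) followed.

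The likeness had visible limits. Chaf1b stood at 9.61, 10.8 and 4.07 FPKM in wild-type back skin, as the class II genes did with a low value at 24 h, but at 8.88, 10.5 and 9.29 in the p53 knockout, where the class II genes were low at 24 h. In the footpad, Chaf1b stood at 6.17, 2.47, 3.95 and 7.61 FPKM in the Krt17 knockout, with the low point at T3 and the high point at T9 that H2-Aa also had. Of the other members, Itgax had r of 0.63 and 0.81 with the class II genes, Mgl2 0.67 and 0.50, Cd207 0.43 and 0.20, and Ciita 0.07 and 0.76. Cd207 and Itgax had r of 0.75 with each other in back skin and -0.07 in the footpad.

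By the same measure, with 3 genes each, Cd207 was most like Myoc (0.67 and 0.72), Gpsm2 (0.79 and 0.66) and Bbox1 (0.59 and 0.66). Mgl2 was most like Ncaph (0.78 and 0.88), Racgap1 (0.77 and 0.85) and Hmgn2 (0.76 and 0.88), genes of chromosome condensation, cell division and chromatin. Ciita was most like Cd52 (0.66 and 0.75), Sec14l2 (0.65 and 0.67) and Tbl1xr1 (0.60 and 0.76), and Itgax most like Cd52 (0.81 and 0.81), Mir142hg (0.66 and 0.74) and Tbl1xr1 (0.73 and 0.65). Cd52, a surface protein of leukocytes, stood at 32.7, 19.7, 31.8 and 53.7 FPKM in the Krt17 knockout footpad, lowest at T3 and highest at T9 as Itgax was.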

How the data were processed

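RNA-seq of 34 skin samples in 17 groups of 2 was used. The deposited values are FPKM, 1 mean column per group in 2 tables of 47633 genes, made by the authors. Per the submitters' processing notes, the tools are TopHat2 2.1.0 and Cufflinks 2.2.1 and the build mm10, with no role given. The annotation release, the strand setting and the averaging are not given in the sources used here. Overlapping and antisense genes may therefore share reads.

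The 8 members and the 21 gene lists were chosen with earlier results of these data known. Symbols on several lines (116) were left out, and a 0 for a gene with a median of 5 FPKM or more in the other columns was treated as missing (19 values in back skin, 32 in the footpad, none of a member). Because only means are given, the planned limma fit was replaced by log2 ratios of mean FPKM + 1 with no test, for 29 comparisons and 7 interactions. Genes with 1 FPKM in at least 1 column of the tissue form the background, and a fold of 2 is a call. Named genes are the members, up to 4 per list with the widest log2 range, and the most alike genes. Genes outside that rule were picked from the lists after their values were seen. They include H2-DMb1 in back skin, Mertk, Csf1r, Xcr1, Flt3, Cd1d1, Dcn, Pdgfra, the neutrophil genes and those of the closing section. The ratio code was checked on simulated data. All steps used Python 3.11.15, numpy 2.4.6, pandas 2.3.3 and matplotlib 3.10.9. Positions are from GENCODE M21, which holds 47217 of the identifiers, and sequences from RefSeq (GRCm38.p6). The depth is unknown, so no interval is given. Some list genes are not reported here.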

Additional observations from a re-analysis of the deposited data

How the results depend on the processing

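The alternatives were 0.1 FPKM as pseudocount, no filter, a filter of 5 FPKM, columns rescaled by their median ratio or without keratin and keratin-associated genes, and values relative to leukocyte markers. A 1.5-fold call and listed zeros kept as 0 were added after seeing the data. The median of the 4 class II genes moved by more than the set margin in 4 of its alternatives. Relative to leukocyte markers it moved to -0.77 for p53 knockout against wild type at 6 h (from -0.10), -0.73 for wild-type footpad at T9 (from -0.10), -0.50 for the Krt17 knockout footpad at T9 (from 0.20) and -0.094 there from T3 to T6 (from 0.53), with the last pair turning sign, and the cause was not tested. Of the single-member values, 46 moved and 1394 did not. Counts of genes were 1.78 to 2.88 times the reported ones with 0.1 FPKM added and 0.506 to 0.766 times with the filter of 5 FPKM. Rescaling by the median ratio moved the share of higher among called genes from 36.0% to 58.7% in wild-type back skin at 6 h, from 38.5% to 66.2% there at 24 h and from 59.0% to 70.2% in the Krt17 knockout at 24 h. For p53 knockout against wild type this share was 78.4% and became 58.7% at 6 h, and at 24 h it was 69.6% and became 43.0%. For the response of the p53 knockout minus that of wild type it moved from 70.1% to 47.4% and from 63.5% to 33.4%, and for that of the Krt17 knockout from 59.5% to 45.0% and from 61.7% to 48.9%.

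No paired analysis was possible because each group has a single mean column, and leaving out a replicate was not possible for the same reason. The planned limma fit was not run. With group means, neither the spread between samples nor the depth is known, and genes near 1 FPKM such as Ciita and Itgax depend on the pseudocount.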

Other observations

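Interferon gamma is the main inducer of Ciita outside professional antigen-presenting cells, and Ifng itself was at most 0.0925 FPKM in back skin and 0.0426 in the footpad. Its targets were listed at higher levels. Gbp2, an interferon-induced GTPase, stood at 4.87, 1.92 and 6.79 FPKM in wild-type back skin at 0, 6 and 24 h and at 6.58, 17.7 and 5.40 in the p53 knockout. Cxcl9, an interferon gamma chemokine, stood at 1.68, 8.11 and 0.585 FPKM in the p53 knockout and was at most 0.602 in the other back skin groups. The H2 chains of the p53 knockout at 6 h, where Cxcl9 and Gbp2 were highest, stood at 1.02 to 1.15 times their control.

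Signals that maintain or recruit Langerhans cells were listed beside Cd207. Il34, the cytokine of keratinocytes on which Langerhans cells depend, stood at 15.6, 15.6 and 14.5 FPKM in wild-type back skin. In the footpad it stood at 49.1, 40.6, 41.2 and 41.9 in wild type, where Cd207 stood at 10.5, 13.2, 14.2 and 9.99. In the Krt17 knockout footpad Il34 stood at 56.6, 35.8, 31.5 and 43.2, and Cd207 at 12.1, 9.03, 9.41 and 6.54. Ccr2, a receptor of recruited monocytes, stood at 3.25, 0.558 and 1.79 FPKM in wild-type back skin and at 0.311, 0.468, 1.104 and 2.098 in the Krt17 knockout footpad. Ccl20, which draws Langerhans cell precursors, was highest in the footpad in the Krt17 knockout at T3, at 6.20 FPKM against 0.449 at T0.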
